A study of Mus musculus with 4 samples.

Results

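Secreted and membrane proteins enter the endoplasmic reticulum (ER) through a protein channel, lose their signal peptide, receive N-linked sugars and leave in coated vesicles. The genes examined here encode that route: the signal recognition particle and its receptor, the Sec61 translocon with the translocon-associated protein complex (TRAP), signal peptidase, the Alg enzymes that build the sugar donor, oligosaccharyltransferase, the COPII and COPI vesicle coats, the p24 cargo receptors encoded by Tmed genes, and the Sec22 family. They were chosen by gene symbol alone, from a pattern of name prefixes, and 65 of the 7000 genes in the deposited liver RNA-Seq results matched. Of these, 63 have a role on this route. The other 2, Sec14l1 and Sec14l4, share only the first letters of their names with the coat genes and belong to a family of lipid-binding proteins.

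Liver was taken from male wild-type FVB/N mice, an inbred strain, which were 3 weeks old when the diets began and were kept on them for 6 weeks. All mice received a selenium-deficient base diet, supplemented with sodium selenite at 0 ppm Se for the 2 mice of the 0 Se group and at 0.1 ppm Se for the 2 mice of the 0.1 Se group. Total RNA of each liver was depleted of ribosomal RNA and sequenced. The study asked how dietary selenium changes liver gene expression, but that question is not answered here for these genes. The deposited values used are 1 mean for each gene over all 4 libraries, with no value for a single mouse, so the diets were not compared, and no value below carries an error, an n or a test. The depth of each library is unknown for the same reason. A difference in level between genes is therefore given as a description, and whether neighbours in an order of levels differ beyond the spread between mice cannot be told.

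The level of a gene is the authors' mean CPM, a read count scaled to the size of its library, divided by the length of its mRNA in kilobases, written as CPM per kb. A percentile places that level among all 7000 genes listed. A level per kb of coding sequence divides the same CPM by the coding length alone. Reads from the untranslated parts of the mRNA stay in that CPM, so this scale raises genes with long untranslated parts. The list is in order of the authors' p-value for diet and leaves out abundant liver genes such as Alb and Ttr, so a gene that is not listed was not thereby absent from liver, and percentiles refer to the listed genes only. The liver label was checked against marker lists. Of 10 hepatocyte markers 4 were listed (Apoa1, Apoa2, Fgb and Serpina1a), with a summed mean of 25324 CPM. Another of the 10, transferrin, was sought as Tf and not by its mouse symbol Trf, so whether it is listed was not established. The markers of other liver cells that were listed summed to 393 CPM for Kupffer cells (4 of 5 listed), 339 CPM for endothelial cells (4 of 4) and 380 CPM for stellate cells (4 of 4), while 0 of 4 cholangiocyte and 0 of 2 blood markers were listed. These are whole-liver values, in which the number of cells of a type and the RNA per cell cannot be told apart, and the part that non-parenchymal cells had in the levels below was not tested.

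Hepatocytes are known as heavy secretors of plasma proteins. Most genes of the route were at the upper end of the listed genes, and a link of this to secretion was not tested. Their median level was 35.6 CPM per kb, at the 85.2nd percentile, where the median of all listed genes was 6.19 CPM per kb. Of the 65 genes, 53 (81.5%) were above that median. The upper 25% of listed genes held 46 of them (70.8%), and the upper 10% held 18 (27.7%). Between them the 65 genes held 0.996% of the summed mean CPM of the list, close to their share of its genes (65 of 7000). Their mRNAs were close in length to those of the list, with a median of 2885 bases against 2959.5. The levels spread over a wide range, from 163 CPM per kb for Ssr3 to 1.06 CPM per kb for Sec22c. After Ssr3, the highest levels per kb were those of Tmed2 (158), Ssr4 (113), Sec61b (107) and Sec61g (106). The lowest after Sec22c were Sec31b (1.33), Srp54a (1.74), Sec24b (1.99) and Sec14l1 (2.41). The genes at the top per kb of mRNA thus encode subunits of the channel and of TRAP and a cargo receptor. Ssr3 and Tmed2 led on each scale, but the order after them changed. In CPM, Sec61a1 (279), Copa (261) and Rpn2 (241) came next, with Ssr4 at 90.7, Sec61g at 82.3 and Sec61b at 59.3. Per kb of coding sequence, Srp9 (269) and Tmed5 (227) were above Sec61b (204) and Ssr4 (174). At the bottom, Sec22c, Sec24b and Sec14l1 each have a family member listed at a higher level. This held whether levels were divided by mRNA length, by coding length or not at all.

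**Figure D1:**
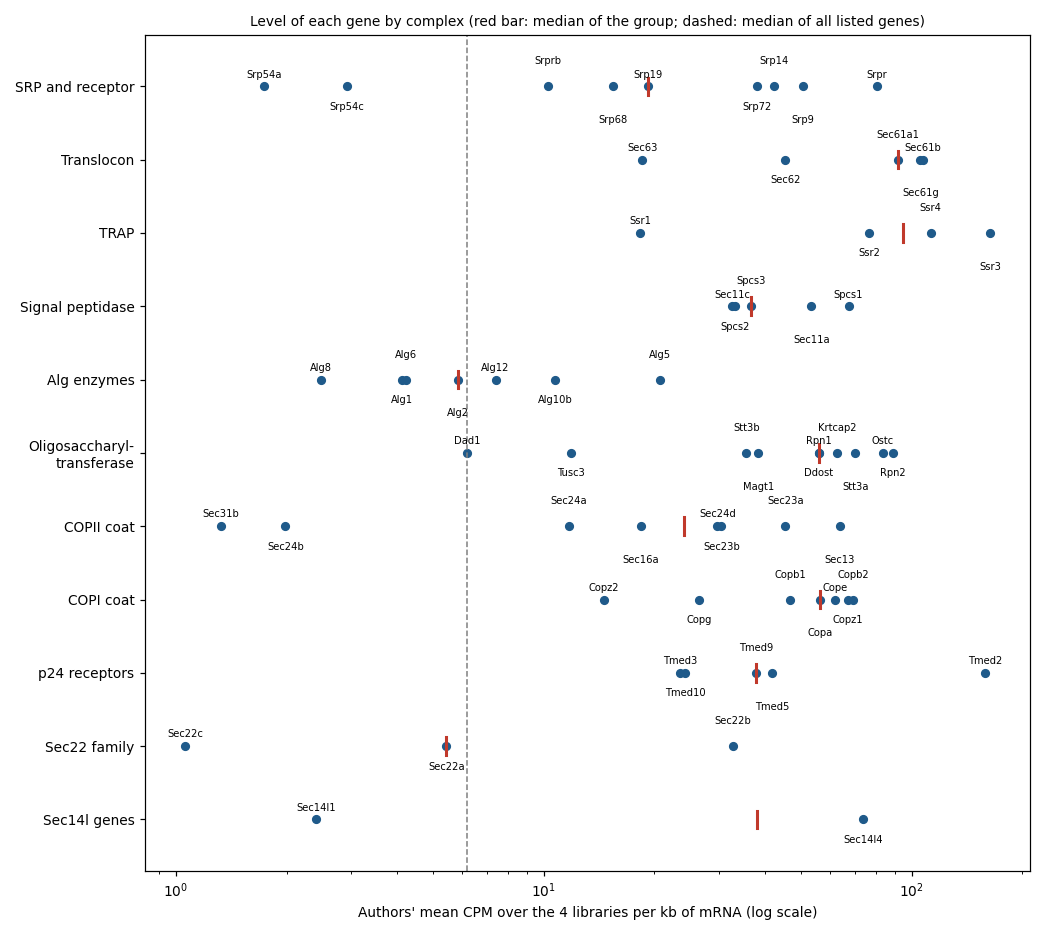
Each point is 1 gene, placed by the authors' mean level over the 4 libraries in CPM per kb of mRNA on a log axis, and the rows are complexes in the order of the route. Red bars mark the median of each row and the dashed line the median of all listed genes (6.19 CPM per kb); the translocon, TRAP, signal peptidase, COPI and p24 rows lie wholly to its right, while the Alg enzymes lie on both sides of it.

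The signal recognition particle binds the signal peptide as it leaves the ribosome and brings the ribosome to the ER, where the receptor releases it. Its 9 listed genes, the 2 Srp54 genes described below among them, had a median of 19.2 CPM per kb (76.2nd percentile). The highest was Srpr, the alpha subunit of the receptor, at 80.7 CPM per kb, whereas Srprb, the membrane-anchored beta subunit, was at 10.3 CPM per kb, a ratio of 7.84 that was 3.26 per kb of coding sequence. Of the 50-base stretches of the Srprb mRNA, 27.8% occur in another gene of the GENCODE vM1 annotation, most often in Trf. The level of Srprb over the unshared length was 14.3 CPM per kb. Srp9 and Srp14 encode partners that together slow elongation, and their levels of 50.6 and 42.4 CPM per kb differed by a ratio of 1.19, which was 2.10 in CPM and 2.68 per kb of coding sequence. Srp72 and Srp68 also bind each other. Their levels were 38.0 and 15.4 CPM per kb, a ratio of 2.47. Srp19, which helps to assemble the particle on its RNA, was at 19.2 CPM per kb.

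The subunit that binds the signal peptide itself, SRP54, is encoded in mouse by near-identical genes, and its low values cannot be read as low expression. Srp54a was listed at 1.74 and Srp54c at 2.92 CPM per kb. The authors kept only reads that aligned to a single mRNA, and reads of 50 bases from these genes mostly match more than 1 of them: 95.7% of the 50-base stretches of the Srp54a mRNA occur in another gene, most often in Srp54b, and 90.3% of those of Srp54c do, most often in Srp54a. In CPM and per kb of coding sequence the order of the 2 genes was turned, with a ratio of Srp54c to Srp54a of 0.990 in place of 1.68. The genes lie on the same strand of chromosome 12, with Srp54a at chr12:56181557-56214680 and Srp54c at chr12:56331155-56377912 (NCBIM37, the assembly also known as mm9), 116474 bases apart. Which reads belong to which symbol is also uncertain, since the length deposited for Srp54c, 2516 bases, is the length that GENCODE vM1 gives to an Srp54a transcript.

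The Sec61 channel is built from 1 copy each of an alpha, a beta and a gamma subunit, and the mean levels of the genes encoding them were close per kb of mRNA. Sec61a1, which encodes the pore, was at 91.7 CPM per kb, Sec61g at 106 and Sec61b at 107, so the highest was 1.17 times the lowest. Without division by length the order was turned: Sec61a1 had 279 CPM, Sec61g 82.3 CPM and Sec61b 59.3 CPM, on mRNAs of 3039, 779 and 552 bases. Per kb of coding sequence the spread was 1.39 times. This took the longest coding sequence annotated for each gene, 303 bases for Sec61g, and shorter ones were not tried. The value of Sec61b is less certain than the other 2, because 48.2% of its 50-base stretches also occur in another GENCODE vM1 gene, most often in Gm10320. Whether the RefSeq mRNAs used by the authors held that gene was not checked. Over the unshared length of Sec61b the level was 207 CPM per kb. Sec62 and Sec63 encode membrane proteins that work with the channel in the import of a part of its substrates. Their levels were 45.3 and 18.5 CPM per kb, a ratio of 2.45 that was 1.61 in CPM, and both were under every subunit of the channel per kb of mRNA. The 5 translocon genes had a median at the 93.1st percentile.

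TRAP sits beside the channel and helps certain signal peptides to insert. Its 4 subunits are present in equal numbers in the complex, but the mean levels of their mRNAs were far apart per kb. Ssr3, the gamma subunit and the highest of all 65 genes, had 163 CPM per kb (471 CPM; gene at chr3:65183577-65196545). Ssr4 followed at 113 and Ssr2 at 76.8 CPM per kb, and Ssr1 was at 18.3 CPM per kb. This order rests on the length given to Ssr1. The deposited mRNA of Ssr1 is 9306 bases long with a coding part of 876 bases, and GENCODE vM1 lists transcripts from 2460 to 9306 bases for it. Per kb of coding sequence Ssr1 had 194 CPM, above Ssr4 (174) and Ssr2 (165) and under Ssr3 (844). That scale divides reads of the whole mRNA by the coding part alone. It raised Ssr1 by a factor of 10.6 over the level per kb of mRNA. Ssr3 was the highest TRAP gene on each scale, and the ratio of Ssr3 to Ssr1 was 8.94 per kb of mRNA, 4.35 per kb of coding sequence and 2.77 in CPM.

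Signal peptidase cuts off the signal peptide once it has entered the membrane. Its 5 genes had the narrowest range of the 10 complexes per kb of mRNA, though not in CPM. Their levels ran from 32.6 to 67.4 CPM per kb, a ratio of 2.07, with a median of 36.6 CPM per kb (85.6th percentile). That ratio was 5.05 in CPM. Per kb of coding sequence it was 3.22 without Spcs3, for which no coding model was found. Sec11a and Sec11c encode alternative catalytic subunits, and the level of Sec11a was 1.64 times that of Sec11c (53.4 against 32.6 CPM per kb). Of the non-catalytic subunits, Spcs1 was at 67.4, Spcs3 at 36.6 and Spcs2 at 33.1 CPM per kb. Of the 50-base stretches of the Spcs1 mRNA, 19.9% occur in another gene, most often in Glt8d1, and the level of Spcs1 over the unshared length was 84.2 CPM per kb.

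The Alg enzymes assemble the sugar donor on the lipid dolichol, 1 sugar after another. The mRNAs of those listed were among the lowest of the route, and Alg genes outside the list could not be placed. The 7 listed genes had a median of 5.84 CPM per kb, at the 48.5th percentile and so at the middle of the listed genes. Of the 10 complexes the Sec22 family alone had a lower median per kb of mRNA, and in CPM and per kb of coding sequence the Alg median was the lowest. Alg5, which makes the activated glucose used on the inner side of the membrane, was highest at 20.7 CPM per kb. The listed mannosyltransferases were lower: Alg12 was at 7.40, Alg2 at 5.84 and Alg1, which adds the first mannose, at 4.13 CPM per kb. The glucosyltransferases that finish the donor spread further, from 10.8 CPM per kb for Alg10b to 4.22 for Alg6 and 2.49 for Alg8. Of the 50-base stretches of Alg1, 24.4% occur in another gene, most often in Fam86. The level of Alg1 over the unshared length, 5.46 CPM per kb, stayed under the median of the list.

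Oligosaccharyltransferase transfers the finished sugar from dolichol to asparagine in the growing protein. Its 10 genes had a median of 55.9 CPM per kb (89.7th percentile). Of the subunits common to both forms of the enzyme, Rpn2 had 88.9, Ddost 56.0 and Rpn1 55.9 CPM per kb, a spread of 1.59 times. Dad1, the smallest of them, was at 6.18 CPM per kb and stretched that spread to 14.4 times. As for Ssr1, the length matters here. The deposited mRNA of Dad1 has 3506 bases for a coding part of 342, and GENCODE vM1 also lists a Dad1 transcript of 878 bases. Per kb of coding sequence Dad1 had 63.4 CPM, at the 82.4th percentile in place of the 49.97th, and the spread of the 4 subunits was 2.01 times. Reads from the long untranslated part of Dad1 are held in that value, so it may be too high.

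The catalytic subunit of the enzyme is either Stt3a, which works at the translocon during translation, or Stt3b, which also acts on sites that were passed over. Stt3a was at 70.3 and Stt3b at 35.6 CPM per kb, a ratio of 1.98 that fell to 1.47 per kb of coding sequence and 1.26 in CPM. Ostc and Krtcap2 tie the Stt3a form to the translocon, and their levels, 83.6 and 62.7 CPM per kb, lay on either side of that of Stt3a. The same held per kb of coding sequence (197 and 48.8 against 89.5). In CPM both were under Stt3a (88.8 and 32.4 against 190). The length deposited for Krtcap2, 516 bases, is shorter than the longest coding sequence annotated for it, 663 bases, so its level per kb depends on the transcript taken. Magt1 and Tusc3 are alternative thiol oxidoreductase subunits of the Stt3b form. Magt1 was at 38.3 CPM per kb and Tusc3 at 11.9, a ratio of 3.23 that was 9.66 in CPM and 9.11 per kb of coding sequence.

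**Figure D2:**
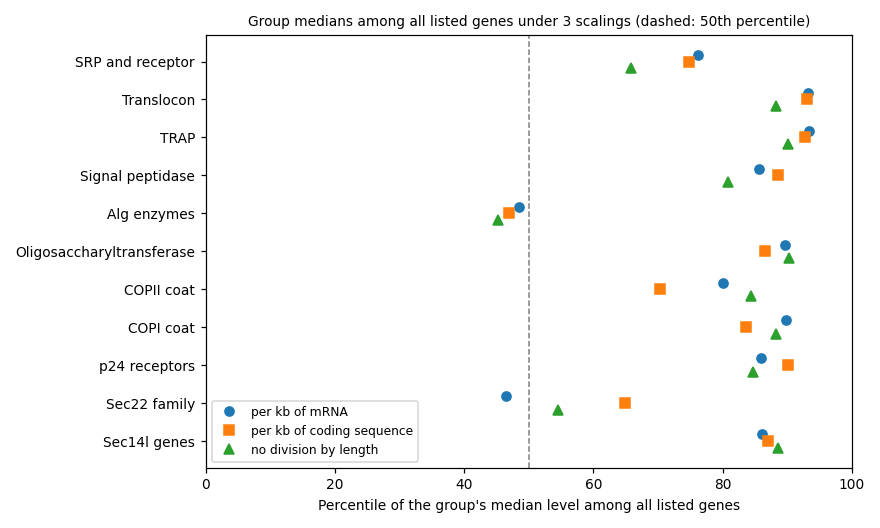
The median level of each complex is given as a percentile of all listed genes, on a linear axis from 0 to 100, for levels per kb of mRNA (circles), per kb of coding sequence (squares) and without division by length (triangles). The Alg enzymes stay within a few points of the dashed 50th percentile on all 3 scales, and the translocon, TRAP and oligosaccharyltransferase medians stay above the 85th.

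COPII coats form the vesicles that carry cargo from the ER. Sec23 and Sec24 build the inner layer, Sec24 with the sites that bind cargo, Sec13 and Sec31 the outer cage, and Sec16a marks the ER exit sites. The 8 listed genes had a median at the 80.0th percentile and the widest range of any group, 48.1 times. Sec13 was highest at 63.8 CPM per kb, and Sec31b lowest at 1.33. Sec31a, which encodes the more widely used partner of Sec13, was not listed, so the 2 cage subunits could not be compared. In the inner layer Sec23a was at 45.4 and Sec23b at 30.4 CPM per kb, a ratio of 1.49. The Sec24 genes were more uneven. Sec24d was at 29.6, Sec24a at 11.7 and Sec24b at 1.99 CPM per kb, so Sec24d was 2.53 times Sec24a and 14.9 times Sec24b. The first of these ratios was 1.44 in CPM and 1.52 per kb of coding sequence. Sec24c was not listed. Sec16a was at 18.4 CPM per kb on an mRNA of 8739 bases.

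COPI coats carry proteins back from the Golgi to the ER, and all subunits of coatomer bind the membrane as 1 unit. The 7 listed COPI genes had a median of 56.5 CPM per kb (89.8th percentile). Copb2 was at 69.5, Copz1 at 67.0, Cope at 62.1, Copa at 56.5, Copb1 at 46.7 and Copg at 26.5 CPM per kb. The highest of these 6 was 2.63 times the lowest, and the delta subunit, Arcn1, which the name pattern does not match, lay within the same range at 67.5 CPM per kb. Per kb of coding sequence the spread was wider, 5.18 times, with Copz1 at 209 and Copg at 40.3. Copz2 encodes a second form of the zeta subunit and was at 14.6 CPM per kb, so Copz1 was 4.59 times as high, and 8.23 times in CPM and 9.52 times per kb of coding sequence. Copg2, the alternative gamma subunit, was not listed.

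The p24 proteins span the membrane of COPII and COPI vesicles and select cargo. The 5 p24 genes that were listed had a median of 37.8 CPM per kb (86.0th percentile), and members outside the list could not be placed. Tmed2, the beta member, stood far above the other listed members at 158 CPM per kb (gene at chr5:124990704-125000515), while Tmed5 was at 41.8, Tmed9 at 37.8, Tmed10 at 24.2 and Tmed3 at 23.5. Tmed5 and Tmed3 belong to the same subfamily, and Tmed5 was 1.78 times as high as Tmed3 per kb of mRNA, 5.04 times in CPM and 4.86 times per kb of coding sequence. Sec22b, a SNARE that works in fusion between ER and Golgi, was at 32.6 CPM per kb. Its relatives Sec22a and Sec22c were at 5.44 and 1.06, so Sec22b was 6.01 times Sec22a and 30.7 times Sec22c. The ratio to Sec22a was 2.73 in CPM and 3.89 per kb of coding sequence, and that to Sec22c was 9.65 and 13.6. Of the 2 lipid-binding genes caught by the name pattern, Sec14l4 was at 73.7 and Sec14l1 at 2.41 CPM per kb.

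**Figure D3:**
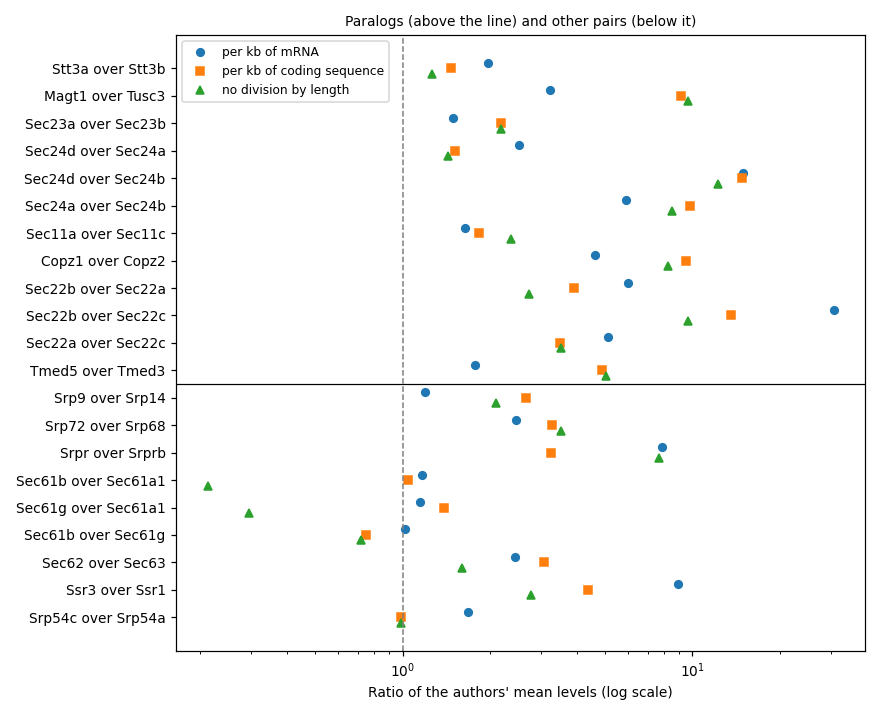
Each row is a ratio of the mean levels of 2 genes on a log axis, with paralogs above the horizontal line and other pairs under it, for the same 3 scales as before. Of the 12 paralog pairs, 8 differ by a ratio of 2 or more per kb of mRNA. This count holds all pairs among the Sec24 and among the Sec22 genes. The pairs that cross the dashed line at 1 are Sec61b with Sec61a1, Sec61g with Sec61a1, Sec61b with Sec61g, and Srp54c with Srp54a.

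Where 1 gene of a family was far above its relatives, that order held on all 3 scales. The 12 paralog pairs were Stt3a with Stt3b, Magt1 with Tusc3, Sec23a with Sec23b, Sec11a with Sec11c, Copz1 with Copz2, Tmed5 with Tmed3, and the pairs among the 3 Sec24 and among the 3 Sec22 genes. In each of them the same gene was the higher per kb of mRNA, per kb of coding sequence and in CPM. A ratio of 2 or more was seen for 8 of them per kb of mRNA, 9 per kb of coding sequence and 10 in CPM. The 8 pairs per kb of mRNA include all those among the Sec24 and among the Sec22 genes. Pairs within 1 family depend on each other. The plot of mRNA against coding length shows where the choice of length matters most. The mRNA was 10.6 times the coding length for Ssr1, 10.3 times for Dad1 and 6.34 times for Sec22c, where the median was 1.94 for the 64 genes with a coding model and 1.79 for all listed genes with one.

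**Figure D4:**
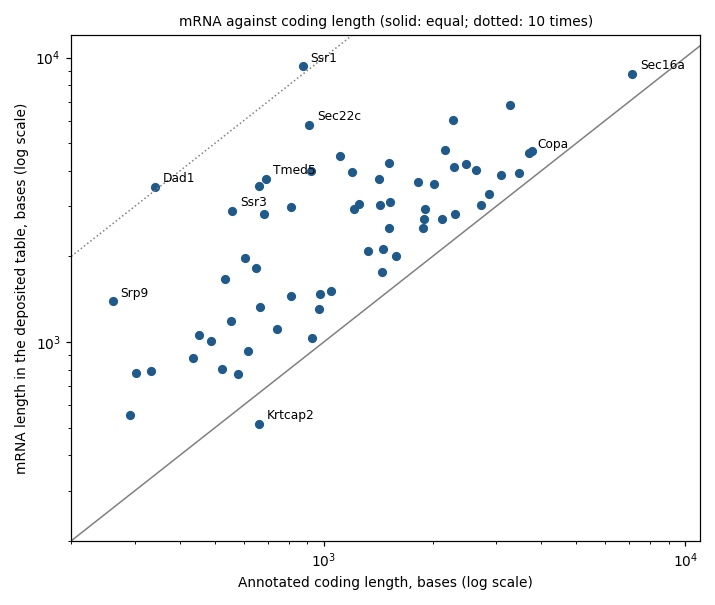
Each point is 1 of 64 genes, with the annotated coding length on the x axis and the mRNA length of the deposited results on the y axis, both in bases on log axes. The solid line marks equal lengths and the dotted line a ratio of 10; Ssr1 and Dad1 lie close to the dotted line, and Krtcap2 is the gene whose mRNA is listed as shorter than its longest coding sequence.

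COPI returns membrane proteins to the ER by binding lysines close to the cytosolic end of the protein, either side by side or with 1 residue between them, the nearer of them being the third residue from the end. The ends of the coding sequences were searched for lysine codons at these positions. Of the 64 genes with a coding model, 8 (12.5%) had a transcript with such an end, where 433 of all 21370 coding genes (2.03%) did. The ends of 7 of these genes, and of Tmed10 and Tmed2 without the motif, are given because they hold the letters these counts rest on. They hold the last 12 codons and the stop codon, with the lysine codons of the motif in capitals, from NCBIM37.
Ddost (last exon of 11, chr4:137867860-137867898, plus strand): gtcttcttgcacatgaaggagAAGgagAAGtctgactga
Stt3b (last exon of 16, chr9:115153083-115153121, minus strand): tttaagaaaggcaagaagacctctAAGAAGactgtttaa
Krtcap2 (last exon of 5, chr3:89053575-89053613, plus strand): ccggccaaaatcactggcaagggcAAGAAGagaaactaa
Ssr2 (last exon of 5, chr3:88391875-88391913, plus strand): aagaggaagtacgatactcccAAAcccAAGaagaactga
Alg6 (last exon of 15, chr4:99428721-99428759, plus strand): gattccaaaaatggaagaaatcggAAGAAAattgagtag
Alg8 (last exon of 13, chr7:104540231-104540269, plus strand): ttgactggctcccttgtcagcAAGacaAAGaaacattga
Tmed9 (last exon of 5, chr13:55698313-55698351, plus strand): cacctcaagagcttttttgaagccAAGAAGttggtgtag
Tmed10 (no motif at these positions; last exon of 5, chr12:86684378-86684416, minus strand): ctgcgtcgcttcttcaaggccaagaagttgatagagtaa
Tmed2 (no motif; last exon of 4, chr5:124999176-124999214, plus strand): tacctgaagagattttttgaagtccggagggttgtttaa

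The ends of Ddost, Stt3b and Krtcap2 belong to oligosaccharyltransferase, and that of Ssr2 to TRAP. The remaining match, Srp19, encodes a soluble protein, so a match of letters is not by itself a retrieval signal. Whether the other ends, that of Stt3b among them, lie in the cytosol, where COPI could bind them, was not checked. Of the 5 listed p24 genes, Tmed9 matched. In Tmed10 the lysine codons lay at positions 4 and 5 from the end, where the search asked for 3 and 4 or 3 and 5, and Tmed2 and Tmed3 had no lysine codon among the last 6. The levels of the 7 genes shown with the motif ran from 76.8 CPM per kb for Ssr2 to 2.49 for Alg8.

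Genes of the route are known to be induced in the unfolded protein response by the factors ATF6 and XBP1, which bind ER stress elements. RefSeq promoters, from 250 bases before to 50 bases after each start (GRCm38.p6), were found for 54 of the 65 genes and searched on both strands for 3 motifs. The element ERSE, written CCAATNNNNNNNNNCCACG, was in 1 of 54 (1.85%), Alg12, and in 0.137% of all 27025 genes with a promoter. The element ERSE-II was in Krtcap2 (1.85%) and in 0.0444% of all. The core TGACGTGG bound by XBP1 was in 4 (7.41%), all of them coat genes, and in 0.714% of all. The matches are shown in capitals with 10 bases on each side, on the strand of the gene, since they are the letters these counts rest on.
Alg12 (ERSE, chr15:88819510-88819548): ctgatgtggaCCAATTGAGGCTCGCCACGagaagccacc
Krtcap2 (ERSE-II, chr3:89246480-89246510): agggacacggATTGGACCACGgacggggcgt
Copb1 (core on the opposite strand, chr7:114254691-114254718): ccgcccccttCCACGTCAgccaaggact
Copb2 (core on the opposite strand, chr9:98563714-98563741): cccggaagttCCACGTCAgtgggttggc
Sec23a (core, chr12:59011994-59012021): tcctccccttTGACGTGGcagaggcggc
Sec24d (core, chr3:123267460-123267487): cccgggcgccTGACGTGGcactagcaac

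The 6 genes with a match had levels from 69.5 CPM per kb for Copb2 to 7.40 for Alg12. The other genes with a promoter to search held none of these letters in this window, which says nothing of the factors themselves. Some genes of the route are neighbours in the genome. Alg2 (chr4:47477939-47487205, minus strand) and Sec61b (chr4:47487530-47496114, plus strand; NCBIM37) are transcribed away from each other with 324 bases between them, and their levels were 5.84 and 107 CPM per kb. Copg, Rpn1 and Sec61a1 lie within chr6:87837808-88468899, at levels of 26.5, 55.9 and 91.7 CPM per kb.

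Other genes of the same pathway, from a separate list of 54, were set beside these levels. Of the list 39 were in the results, 34 of them above the median of all listed genes, with a median of 25.8 CPM per kb (81.1st percentile). Hspa5, the ER chaperone also known as BiP, was at 677 CPM per kb, above each of the 65 genes matched by name. Sar1b, the GTPase that starts COPII assembly, was at 157 and Sar1a at 44.4 CPM per kb. The cargo receptors Lman1 (128) and Surf4 (116) were above each COPII coat gene, and Lman1's partner Mcfd2 was at 102 CPM per kb. Tram1, a membrane protein beside the channel, was at 125 CPM per kb and its paralog Tram2 at 1.25. Genes outside the Alg names that make dolichol or its first sugar donors spread on both sides of the median of the list. Dpm3 and Dpm2, of the enzyme that makes the activated mannose, were at 24.6 and 10.3 CPM per kb, and Dpagt1, which starts the sugar donor, was at 11.6. Dhdds was at 7.78, Dolpp1 at 5.66 and Srd5a3 at 4.02 CPM per kb.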

How the data were processed

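RNA-Seq of liver from 2 mice fed 0 Se and 2 fed 0.1 Se was analysed. The authors aligned 50-cycle reads with Bowtie to RefSeq mRNAs of mm9, 1 entry (longest isoform) per gene, kept unique alignments with up to 2 mismatches, and applied edgeR to genes that passed 1 CPM in 3 samples or more. Tool versions and the use of strand in counting are not stated in the methods or labels used. Used here are the deposited log2 mean CPM, made by the authors over all 4 libraries, and the deposited mRNA length. The other deposited columns hold the authors' log2 fold change, p-value and FDR between diets and were not used, except to check that rows follow the p-value. There are 0 columns for single mice, so depth is unknown and the planned count tests were not run. The planned protein comparisons were not run either, and coding sequences took the place of reference proteins.

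Means were converted to linear CPM and divided by length in Python 3.11.15. Complexes, pairs and lists, and the genes named (every member, others only from those lists), were chosen with earlier results of these data known. The subunit sets, partner pairs, threshold counts and neighbours were added after levels had been seen. GENCODE vM1 (NCBIM37) matched 6934 listed genes and gave coding lengths for 6909 (98.7%), and for 64 of 65 members. Coding length was first taken from the transcript nearest the deposited length, and changed to the longest complete coding sequence after implausibly short values were seen. Lysine ends were first sought in that sequence alone (7 of 64 members, 10.9%; 374 of 21370 genes, 1.75%), then in any complete transcript after Tmed9 gave another end. Shared 50-base stretches are exact matches on either strand. Scripts were tested on simulated data.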

Additional observations from a re-analysis of the deposited data

How the results depend on the processing

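The deposited means have no error, and they do not show how the levels vary between mice or diets. The planned edgeR test was not run, because no counts for single mice were used. For the same reason no DESeq2 fit with its size factors, no count filter and no omission of each mouse was run. No paired analysis was possible because the values come from no test and the groups share no replicate number. Of 10 complexes, 8 had a median above the 75th percentile of listed genes. The number was 7 without division by length, 6 with coding length, 6 with the geometric mean, 8 at 1 CPM or more, 6 at 5 CPM or more and 8 with unshared length, an alternative chosen after seeing the data, in which the shared part of Srp54a was measured on a shorter transcript than the deposited one. The complexes that fell under the 75th percentile in an alternative were the signal recognition particle with its receptor and the COPII coat. Their medians ranged from the 65.7th to the 86.0th and from the 70.0th to the 84.4th percentile. The share of genes above the median of the list stayed between 78.5% and 84.4% over the alternatives run for it. The Alg median lay between the 39.5th and 50.6th percentiles and the Sec22 median between the 33.0th and 64.9th, the latter 2 bounds being at 5 CPM or more and with coding length. Of 21 pairs, 4 turned direction without division by length: log2 ratios became -2.23 for Sec61b over Sec61a1, -1.76 for Sec61g over Sec61a1, -0.47 for Sec61b over Sec61g and -0.014 for Srp54c over Srp54a. With coding length 2 turned, Sec61b over Sec61g (-0.42) and Srp54c over Srp54a (-0.014). Levels rest on the length chosen because each is a mean CPM divided by it. Paralogs, and neighbours that share sequence, stay uncertain since reads with 2 mismatches were not modelled.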
